A study of Mus musculus with 2 samples.

Results

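Mir107, Mir103-1 and Mir103-2 are the mouse miRNA genes that lie inside the pantothenate kinase genes Pank1, Pank3 and Pank2. They were taken by symbol from the annotation of the deposited count tables, as 3 of 2202 miRNA genes, and they were chosen by earlier readings of these tables, namely their CPM and the large replicate ratio of Mir107. Their levels and their difference between the replicates are therefore given as descriptions, without a test. The libraries were small RNA libraries with inserts under 30 nt, made from total RNA of adrenal gland of C57BL/6J mice, an inbred strain. They form 1 group with 2 biological replicates, untreated as far as the labels tell. Both replicates carry the same donor record, so they are not shown to be separate animals and their spread may be technical only. The labels give no age or stage, and 1 label calls the tissue WT and male while another says that sex was not collected.

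Pantothenate kinases catalyse the first and rate-controlling step in the synthesis of coenzyme A, the carrier of acetyl and acyl groups from which cholesterol and, in the adrenal cortex, steroid hormones are built. A miRNA is cut from a hairpin in a longer transcript, and 1 of its arms guides silencing of mRNAs that pair with its seed, bases 2 to 8. In mice, miR-103 and miR-107 are known for lowering insulin sensitivity through caveolin-1, and in human cells for targeting Dicer, the enzyme that makes miRNAs.

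The mature 3p sequences, which carry the seed for which this pair is known, are shown first, with the seed in capitals. They come from RefSeq on GRCm38.p6, read 5′ to 3′.
miR-107-3p: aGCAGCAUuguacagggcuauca
miR-103-3p: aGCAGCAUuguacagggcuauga
Both have the seed GCAGCAU, and they differ by the single substitution C22G, written from miR-107-3p to miR-103-3p and counted from 1 at the 5′ end. Mir103-1 and Mir103-2 make exactly the same 3p sequence. Of 1738 mature entries of mouse genes in the RefSeq table, 3 (0.173%) have GCAGCAU at bases 2 to 8, and all 3 belong to these genes.

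The 5p arms, shown because they are where the copies of Mir103 can be told apart, have the seed GCUUCUU in common.
miR-107-5p: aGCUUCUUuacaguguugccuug
miR-103-2-5p: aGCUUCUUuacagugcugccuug
miR-103-1-5p: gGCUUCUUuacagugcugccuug
The 5p arm of Mir107 differs from that of Mir103-2 by U16C, and that of Mir103-2 differs from that of Mir103-1 by A1G.

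The full hairpins are given with the 3p arm in capitals, since reads can be assigned to 1 gene only through bases that differ between them.
Mir107: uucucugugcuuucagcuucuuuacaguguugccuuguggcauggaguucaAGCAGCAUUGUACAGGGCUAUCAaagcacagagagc
Mir103-2: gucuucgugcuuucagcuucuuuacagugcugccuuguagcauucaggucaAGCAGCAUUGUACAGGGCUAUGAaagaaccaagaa
Mir103-1: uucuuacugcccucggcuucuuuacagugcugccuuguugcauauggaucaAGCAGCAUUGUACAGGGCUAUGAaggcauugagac
The hairpins of Mir103-2 and Mir103-1 share an unbroken stretch of 27 nt, and that of Mir107 shares 24 nt with each of them.

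The hairpins occupy the same place in their hosts. On mm10, Mir107 (ENSMUSG00000065594.1) is on the minus strand at chr19:34820687-34820773, Mir103-2 (ENSMUSG00000065563.1) on the plus strand at chr2:131288052-131288137, and Mir103-1 (ENSMUSG00000065553.1) on the plus strand at chr11:35782396-35782481. Each is transcribed in the direction of its host and lies in intron 5 of a coding transcript of 7 exons. The hairpin starts 326 nt past exon 5 of Pank1, 454 nt past exon 5 of Pank2 and 688 nt past exon 5 of Pank3. The introns themselves are of unequal size, with 7282 nt in Pank1, 5801 nt in Pank2 and 1740 nt in Pank3. No gene is annotated on the opposite strand at any of the 3 hairpins, and none had a count there. The host mRNAs were not measured in these libraries. An intron of a protein-coding gene on the same strand is a common place for a miRNA gene, holding 741 of the 2202 genes (33.7%).

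**Figure D1:**
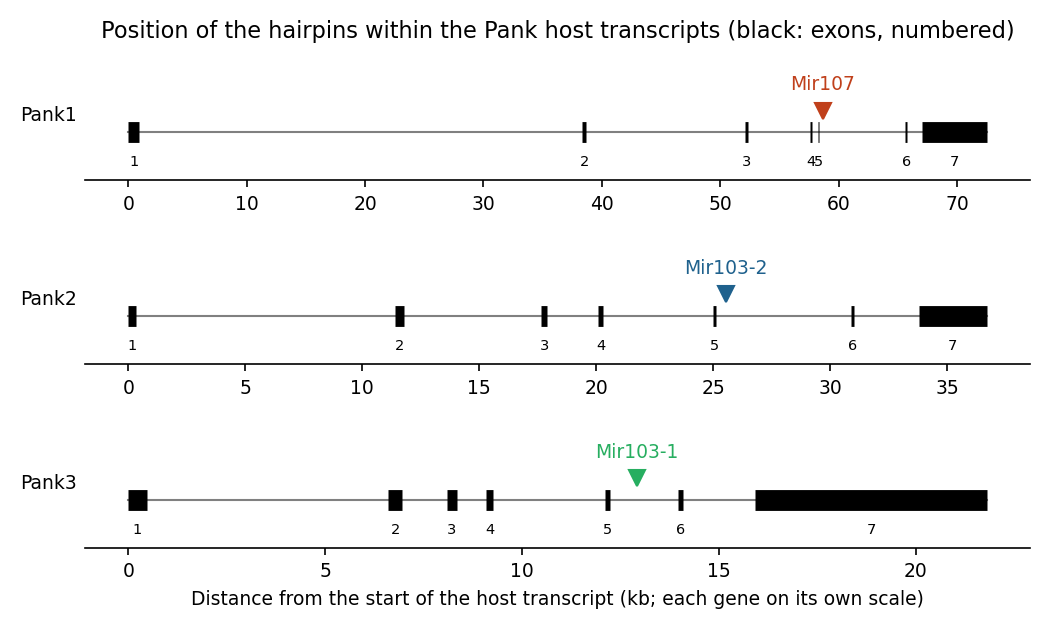
Exons (black, numbered) of the longest coding transcript of Pank1, Pank2 and Pank3, drawn from the transcript start in kb with each gene on its own scale; triangles mark the hairpins. Mir107, Mir103-2 and Mir103-1 all lie in intron 5, 326, 454 and 688 nt past exon 5.

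The deposited tables count multimapping reads apart from the genes, by a rule that is not given in the sources used here. The counts of these genes may therefore depend on how long a read must be to exist in 1 gene only. Against the sequences of the other miRNA genes on both strands, a read starting at the first base of miR-107-3p becomes unique to Mir107 at 22 nt, at the last base but one of the mature form. A read starting at the first base of miR-103-3p becomes unique to Mir103-1 or to Mir103-2 only at 25 nt, 2 bases past the end of the 23 nt mature form. The 5p arms are separable earlier, at 16 nt for miR-107-5p, 16 nt for miR-103-2-5p and 10 nt for miR-103-1-5p. Between the Mir103 genes this rests on base 1 of the arm alone. A read that starts 1 base later needs 24 nt to be unique to either, longer than the mature form. By exact match, reads of just the mature miR-103-3p could thus be placed at neither Mir103 gene alone, and the rest of the genome was not searched. The levels of Mir103-1 and Mir103-2 below are thus uncertain and are not taken as a measure of miR-103, and under exact matching Mir107 would miss reads cut short of base 22. How mismatched or clipped reads were treated is not known. The tables give no read lengths and do not separate the arms of a hairpin.

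**Figure D2:**
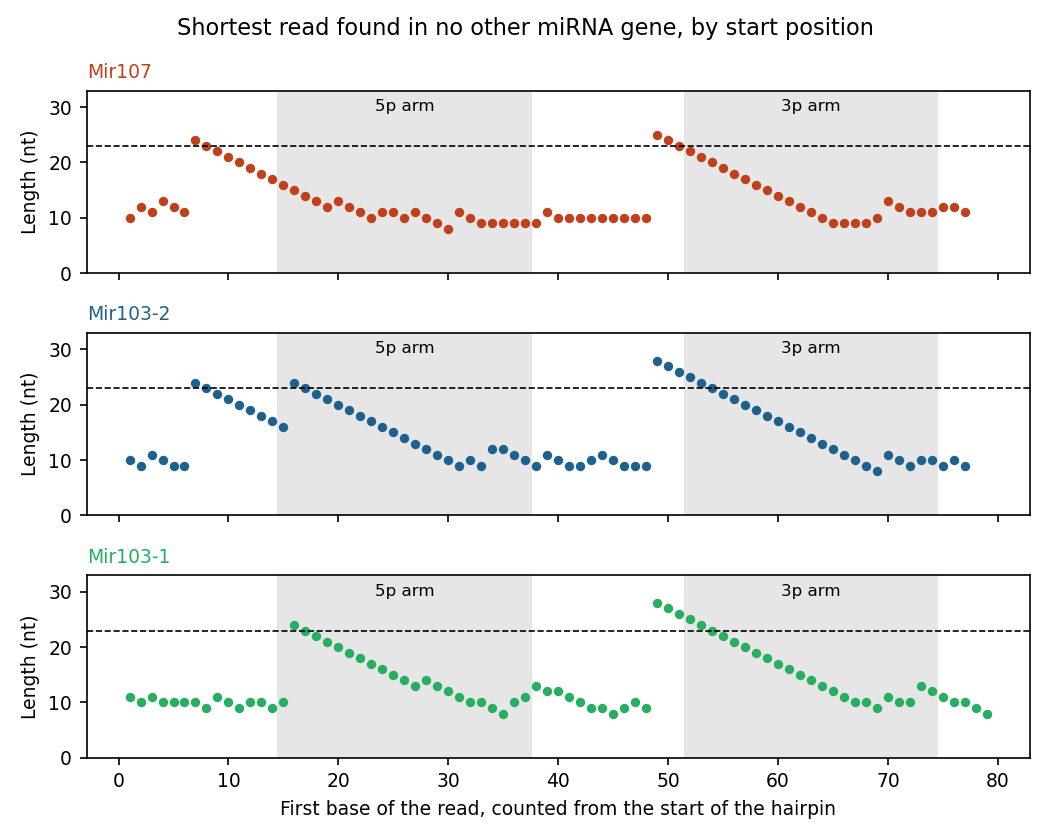
For each first base along the hairpins of Mir107, Mir103-2 and Mir103-1 (x axis), the shortest read in nt that is found in no other miRNA gene (y axis); grey bands are the mature arms and the dashed line is their length of 23 nt. At the first base of the 3p arm the value is 22 nt for Mir107 and 25 nt for both Mir103 genes.

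Mir107 held nearly all counts of the 3 genes. Levels are CPM, counts scaled to a common total of the reads assigned to miRNA genes, 10263894 in replicate 1 and 3525666 in replicate 2, and the hairpins have almost the same length (86 or 87 nt). Mir107 had 13447 counts in replicate 1 and 1310 counts in replicate 2, which is 1310.1 CPM (exact binomial 95% interval 1288 to 1332) and 372 CPM (352 to 392). Its mean was 841 ± 664 CPM (SD, n = 2), and it ranked 56th of all miRNA genes in replicate 1 and 112th in replicate 2. Mir107 had far more than 3 counts in both libraries, and the intervals, which cover counting error only, do not overlap.

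Mir103-2 had 216 counts in replicate 1 and 21 counts in replicate 2, or 21.04 CPM (18.3 to 24.05) and 5.96 CPM (3.69 to 9.10). Its mean was 13.5 ± 10.7 CPM (SD, n = 2). It was far below Mir107 in both libraries and, like Mir107, higher in replicate 1. Mir103-1 had 29 counts in replicate 1 and 1 count in replicate 2, or 2.83 CPM (1.89 to 4.06) and 0.284 CPM (0.00718 to 1.58), with a mean of 1.55 ± 1.80 CPM. With 1 count in replicate 2, its measured value there is under 0.851 CPM, the value of 3 counts, which is the limit taken here for a count of 0. The interval reaches past that limit, to 1.58 CPM.

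**Figure D3:**
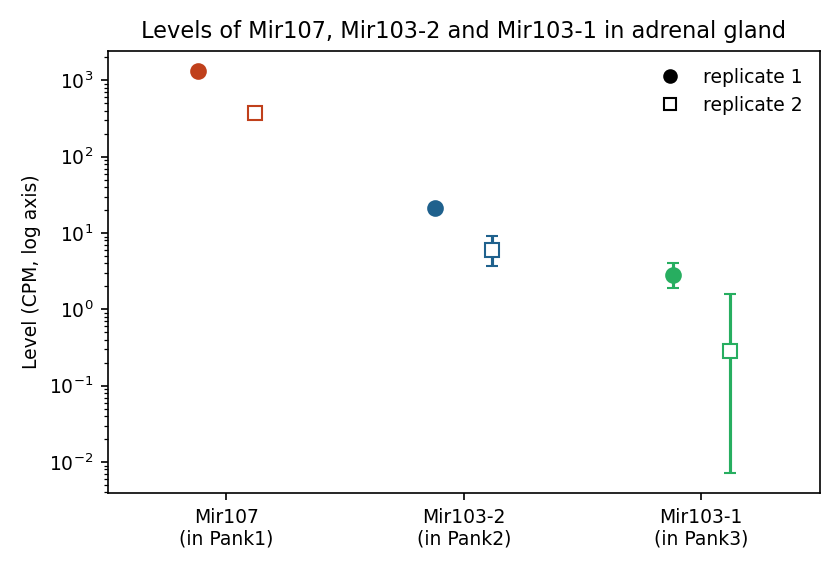
Level in CPM (log axis) of Mir107, Mir103-2 and Mir103-1 in replicate 1 (filled circles) and replicate 2 (open squares), with exact binomial 95% intervals. Mir107 stands at 1310.1 and 372 CPM, Mir103-2 at 21.04 and 5.96 CPM and Mir103-1 at 2.83 and 0.284 CPM.

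Within each library the order by assigned counts was Mir107 above Mir103-2 above Mir103-1, and the counting intervals of the 3 genes did not overlap. By exact match, reads of just the mature miR-103-3p could be placed at neither Mir103 gene alone, while miR-107-3p is unique from 22 nt. The order and the proportions here thus describe assigned counts and are not read as proportions of miR-107 to miR-103. Mir107 took 98.2% (exact binomial 95% interval 98.0 to 98.4) of the counts of the 3 genes in replicate 1 and 98.3% (97.5 to 99.0) in replicate 2. Mir107 had 62.3 counts for each count of Mir103-2 in replicate 1 (54.4 to 71.5) and 62.4 in replicate 2 (40.6 to 101). This proportion was the same in both libraries within counting error. Mir103-2 gave 88.2% (83.4 to 91.9) of the counts of the Mir103 genes in replicate 1 and 95.5% (77.2 to 99.9) in replicate 2. Together the 3 genes held 0.133% of assigned counts in replicate 1 and 0.0378% in replicate 2, a mean of 0.0856% ± 0.0676 (SD, n = 2).

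All 3 genes were higher in replicate 1. Mir107 was 3.52-fold higher (log2 ratio 1.82, counting interval 1.74 to 1.90) and Mir103-2 3.46-fold higher (log2 ratio 1.79, 1.17 to 2.54), with 0.5 counts added. For Mir103-1 the log2 ratio of 2.76 has an interval from 0.72 to 8.67. Among the 277 miRNA genes that averaged 10 CPM or more, 18 (6.5%) were more than 2-fold higher in replicate 1 and 16 (5.78%) more than 2-fold lower, and the median log2 ratio was 0.13. Mir107 and Mir103-2 belong to those 277 and to the 18, and Mir103-1, at a mean of 1.55 CPM, does not reach the 277. Mir103-2 averages 10 CPM only through replicate 1, with 21.04 CPM there and 5.96 CPM in replicate 2. Its place among the 18 thus rests on the replicate in which it is high. Because the ratios were known when the genes were picked, nothing is read from the place of either gene among the 18. In order of the ratio, 4 of the 277 genes stood above Mir107, which Mir103-2 followed directly. Those 4 were Mir31 at a log2 ratio of 3.12, Mir451a at 2.26, Mir298 at 1.96 and Mir34c at 1.93.

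**Figure D4:**
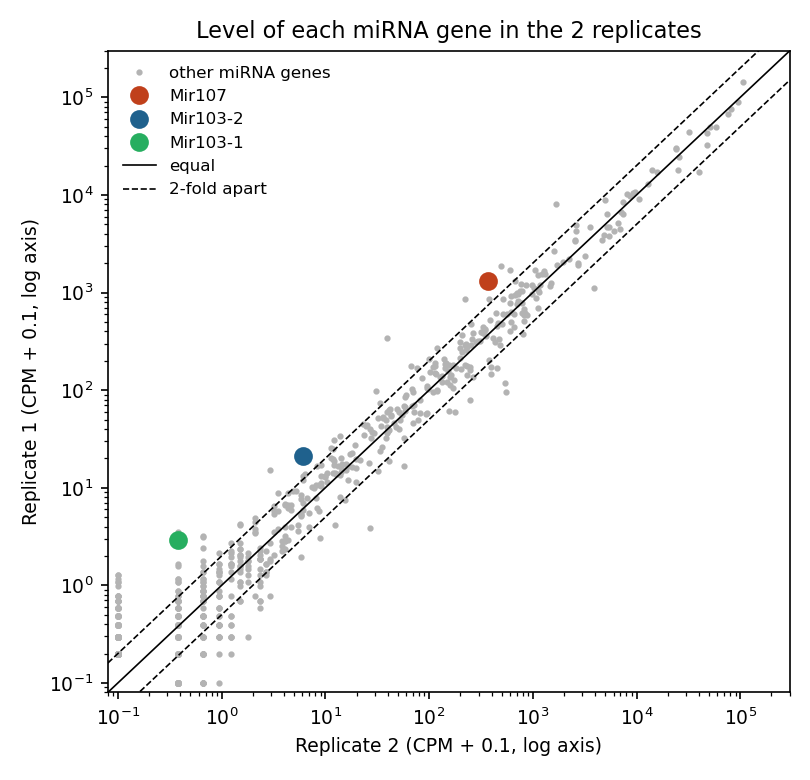
Each miRNA gene with a count in either library, by its level in replicate 2 (x axis) and replicate 1 (y axis), in CPM + 0.1 on log axes; the solid line marks equal levels and the dashed lines a 2-fold difference. Mir107, Mir103-2 and Mir103-1 all lie above the upper dashed line.

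The libraries also differed in other respects. Unmapped reads were 13.8% of all reads in replicate 1 and 41.4% in replicate 2, while multimapping reads were 37.8% and 38.8% of mapped reads. The erythroid markers Mir451a, abundant in red blood cells, and Mir144 were both more than 2-fold higher in replicate 1, as were 6.5% of all 277 genes. Their summed level was 8357 CPM in replicate 1 and 1804 CPM in replicate 2. Mir486, also known from red blood cells and added after its values were seen, had 13.2 and 9.93 CPM, within 2-fold. The read length unique to Mir486 was not worked out, so its counts are not read as a measure of blood content. The neuroendocrine markers Mir375, Mir7-1, Mir7-2 and Mir7b, which fit the chromaffin cells of the adrenal medulla, were all present. Their summed level was 73420 and 80086 CPM, most of it from Mir375 with 68022 and 76044 CPM. Mir7-1 and Mir7b were higher in replicate 1, and Mir375 and Mir7-2 were lower. None was past 2-fold, where 87.7% of all 277 genes lay within it, and Mir7-1 came nearest with a log2 ratio of 0.93. The endothelial Mir126a had 89916 and 95595 CPM. Of the 2 genes listed for adipocytes, Mir143 had 24738 and 25539 CPM and Mir378a had 1065 and 1128 CPM. Mir143 thus made up most of their sum of 25803 and 26667 CPM, which is not read as adipocyte content. Liver Mir122 had 104 and 97.6 CPM, the 4 kidney and gut genes summed to 74.1 and 83.1 CPM, of which Mir194-2 was more than 2-fold higher in replicate 1, and the 4 muscle genes summed to 4.87 and 7.37 CPM. Of the 6 brain genes, 5 had no count, the exception being Mir9-3 with 1 count in replicate 2. The read length that is unique to 1 gene was not worked out for these 6 genes. Multimapping reads are counted apart, so the lack of counts is not read as absence. The part of blood content, mapping or depth in the difference of Mir107 and Mir103-2 was not tested. In bulk tissue, fewer cells of a type and less RNA per cell cannot be told apart.

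Mir103 and Mir107 belong to a wider group of miRNAs with AGCAGC near the mature 5′ end, in which the miR-15 and miR-16 branch is known for restraining the cell cycle. In that branch AGCAGC starts at base 2, so that the seed is offset by 1 base from that of miR-107-3p, as these 5p sequences show with the seed in capitals.
miR-15a-5p: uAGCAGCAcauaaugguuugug
miR-16-5p: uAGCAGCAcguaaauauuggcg
miR-195a-5p: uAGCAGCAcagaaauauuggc
miR-322-5p: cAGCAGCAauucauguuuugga
Searched on the mature strand within bases 1 to 8, AGCAGC was found in 15 of 1738 mature entries (0.863%). Of those entries, 3 lie in genes outside the list used here, and none of these had a count. The list fixed for this group has 10 other genes, of which Mir497b lacks AGCAGC at its mature 5′ end and had no count. These 10 and the 3 Pank-hosted genes together held 2.41% of assigned counts in replicate 1 and 2.49% in replicate 2. Of that total the Pank-hosted genes made up 5.53% in replicate 1 and 1.51% in replicate 2. Mir322, of the H19X cluster on the X chromosome, held most of it with 17149 and 15718 CPM.

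Of those 10 other genes, 8 averaged 10 CPM or more, and Mir195b and Mir497b had no count. None of the 8 was more than 2-fold higher in replicate 1, against 6.5% of all 277 genes, and their median log2 ratio was -0.08, against 0.13 for all 277. Mir195a, a cell-cycle miRNA gene of the Mir497 cluster, was the 1 gene past 2-fold, and in the other direction, with 1115 CPM (replicate 1) and 3883 CPM (replicate 2; log2 ratio -1.80). Mir15a, which shares the host transcript Dleu2 with Mir16-1, had 1215 and 772 CPM (log2 ratio 0.65), whereas Mir16-1 had 1936 and 2737 CPM (log2 ratio -0.50). In the second cluster, within Smc4, the values were Mir15b at 387 and 266 CPM (log2 ratio 0.54) and Mir16-2 at 406 and 601 CPM (log2 ratio -0.57). Mir322 and Mir503, neighbours on the X chromosome, had log2 ratios of 0.13 and -0.14.

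Mir16-1 and Mir16-2 also make 1 identical mature sequence, miR-16-5p, and a read from its first base needs 24 nt to be unique to either, 2 bases past the mature end, as for Mir103. Mir103-2 averaged 13.5 ± 10.7 CPM and Mir103-1 1.55 ± 1.80 CPM, where Mir16-1 averaged 2336 ± 567 CPM and Mir16-2 503 ± 138 CPM (SD, n = 2). The arm and the length of the reads behind these counts are not in the tables, and the part of the shared mature sequence in the low Mir103 counts was not tested.

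**Figure D5:**
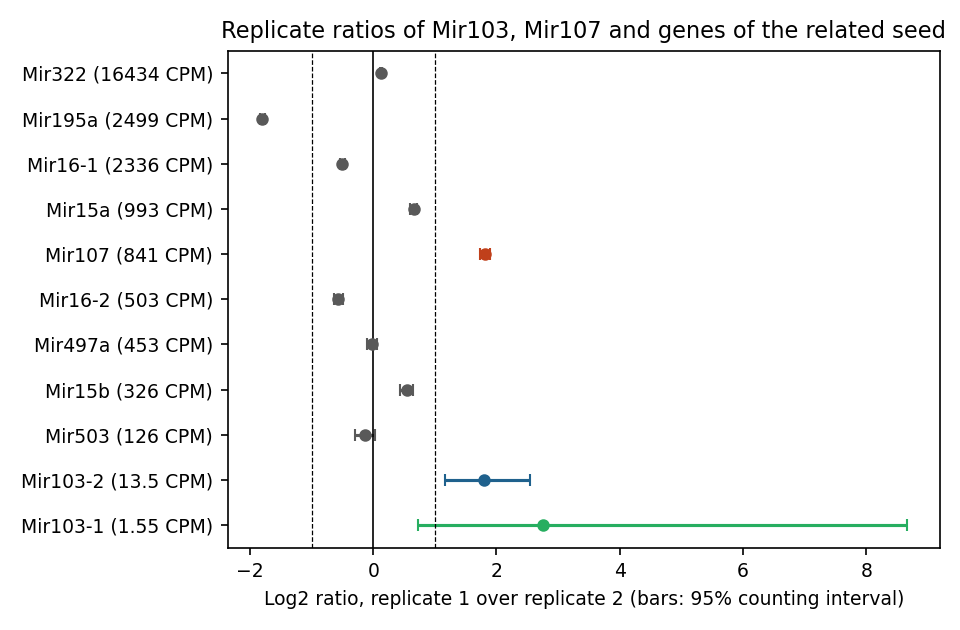
Log2 ratio of replicate 1 over replicate 2 for Mir107, Mir103-2, Mir103-1 and the 8 other genes of the AGCAGC group with counts, ordered by mean CPM; bars are 95% counting intervals and dashed lines mark 2-fold. Mir107 and Mir103-2 lie at 1.82 and 1.79, and Mir195a at -1.80.

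The 6 genes nearest to Mir107 in level lay within 2-fold between the replicates, as did 243 of all 277 genes (87.7%). The nearest above it in mean level were Mir146 (841 ± 178 CPM), Mir134 (844 ± 194 CPM) and Mir17 (901 ± 207 CPM), and the nearest below were Mir29c (809 ± 198 CPM), Mir93 (788 ± 2.80 CPM) and Mir455 (770 ± 211 CPM). None of these 6 differs from Mir107 in mean by more than its own SD of 664 CPM. They were chosen as the nearest in mean, so nothing is read from this. By distance over log2(CPM + 1) in the 2 libraries, the genes most like Mir107 were Mir221 (distance 0.62), Mir34c (0.65) and Mir671 (0.78). For Mir103-2 they were Mir135b (0.52), Mir200c (0.59) and Gm26117 (0.60), and for Mir103-1 they were Mir3070b (0.21), Mir181b-1 (0.30) and Mir294 (0.31), which had 1 or 2 counts in replicate 2. In mean level, Mir103-2 stood between Mir6236 at 13.6 CPM and Mir3074-1 at 13.1 CPM, and Mir103-1 between Mir7238 at 1.57 CPM and Mir3109 at 1.54 CPM. None of these 4 means differs from that of the gene between by more than its SD, which also follows from choosing the nearest.

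Of 14 other listed miRNA genes within protein-coding hosts, 13 averaged 10 CPM or more. Of these, 11 (84.6%) lay within 2-fold, as did 243 of all 277 genes (87.7%). None of the 13 was more than 2-fold higher in replicate 1, against 6.5% of the 277, and 2 were more than 2-fold lower, against 5.78%. The 2 lower ones were Mir26b, within the phosphatase gene Ctdsp1, at a log2 ratio of -1.23 and Mir128-1, within R3hdm1, at -1.14. The median log2 ratio was 0.03. Mir33, which lies in the sterol regulator gene Srebf2 and restrains cholesterol export, had levels of 22.6 CPM (replicate 1) and 17.9 CPM (replicate 2), within 2-fold. Mir103-2 was near it in replicate 1, at 21.04 CPM, and below it in replicate 2, at 5.96 CPM. Over all miRNA genes in introns of protein-coding genes on the same strand, 93 averaged 10 CPM or more. Of these, 5 were more than 2-fold higher in replicate 1, against 13 of 184 other genes and 6.5% of all 277. Mir107 and Mir103-2 are among the 5, Mir103-2 by a mean that only replicate 1 lifts past 10 CPM.

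Among 17 miRNA genes linked to lipid, insulin and glucose metabolism, 16 averaged 10 CPM or more, and the median log2 ratio was 0.16. Mir34a, a target gene of p53, at a log2 ratio of 1.49 and Mir221 at 1.16 were more than 2-fold higher in replicate 1, and Mir370, of the imprinted Dlk1-Dio3 region, at -1.63 was more than 2-fold lower. That is 2 of 16 genes higher, where 6.5% of all 277 genes were. Mir802 had no count.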

How the data were processed

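Small RNA libraries of adrenal gland were analysed in 2 replicates. The authors deposited a table of raw counts for each library, on mm10 with GENCODE M21 per the accompanying description files. Which aligner and counter made them is not given in the sources used here. Per table there are 4 summary lines, left out of library sizes, and 3 columns of counts, read from their sums as unstranded, on the strand of the gene and opposite. Sense counts were scaled to CPM of assigned counts. Symbols and positions came from GENCODE M21 and sequences from RefSeq on GRCm38.p6, the same build. Log2 ratios have 0.5 counts added, and intervals are exact binomial 95% intervals for counting error only.

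With 1 group, no test between groups exists. TMM factors from edgeR 4.0.16 and size factors from DESeq2 1.42.0, under R 4.3.3, were used as alternative scalings only. Python 3.11.15, numpy 2.4.6, scipy 1.17.1, pandas 2.3.3 and matplotlib 3.10.9 did the rest, and the ratio calculation was tested on simulated data. The text names Mir107, Mir103-1 and Mir103-2, genes of the lists, the 3 nearest genes in mean level on each side (1 on each side is printed for the Mir103 genes) and the 3 nearest in pattern. The genes with larger ratios were named after their values were seen. Members and lists were chosen with earlier results of these data known. Mir497a of the list is annotated as Mir497.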

Additional observations from a re-analysis of the deposited data

How the results depend on the processing

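No paired analysis was possible because the series has 1 group. Apart from leaving out a replicate, 26 of 28 recomputed values stayed within the spread of the replicates, the counting interval or 1.5 times the count. These limits were wide, with an SD of 664 CPM for Mir107 and an interval of 0.72 to 8.67 for the log2 ratio of Mir103-1. Staying within them thus says little of stability. The exceptions were counts of genes more than 2-fold higher in replicate 1, which were 18 at a mean of at least 10 CPM, 47 at 10 or more counts over both replicates and 105 at 1 or more counts. With 2 replicates, a mean always stays within 1 SD when 1 is left out, so the values without 1 replicate say nothing of stability. They ran from 372 to 1310.1 CPM for Mir107, from 0.0378% to 0.133% for the sum of the 3 genes and from 98.2% to 98.3% for the share of Mir107 among them. Scaled to all mapped reads, Mir107 had 484 CPM in place of 841 CPM, by construction. With 5 counts added, the log2 ratio was 0.96 for Mir103-1, 1.55 for Mir103-2 and 1.81 for Mir107. TMM and DESeq2 scaling gave 1.83 and 1.77 for Mir107. Depth limits Mir103-1 most, with 1 count in replicate 2.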

Other observations

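Genes with and without a copy of their mature sequence elsewhere were set side by side. Of 1022 genes matched to RefSeq mature entries, 95 make a mature sequence that another gene also makes, as Mir103-1 and Mir103-2 do, and 59 of them (62.1%) had a count in at least 1 library. Among the 927 genes without such a partner, 593 (64.0%) had a count. A level of 10 CPM or more in both replicates was reached by 35 of the 95 genes (36.8%) and 210 of the 927 (22.7%). Neither Mir103-1 nor Mir103-2 reached it. A gene entered the 95 by a shared sequence on either arm, which need not be the arm behind its counts. The difference between these shares was not tested.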
